A study of Mus musculus with 16 samples.

Results

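Spp1, Trem2, Apoe, Gpnmb, Cd9, Lgals3, Fabp5 and Pltp are genes that mark lipid-associated macrophages, and their 8 features were taken by symbol from the 31053 features counted in each library. The libraries were made from CD45+ cells, the leukocytes, of mouse tumors and read with a droplet method that counts unique molecular identifiers (UMIs) near the 3' end of each transcript, so a barcode stands for a droplet that held a cell. MC38, a colon carcinoma line, and Panc02-SIY, a pancreatic carcinoma line that carries the SIY peptide antigen, were grown under the flank skin of C57BL/6J mice 6 to 8 weeks old. Each tumor was left untreated or was given a single dose of 12 Gy of tumor-directed X-rays and taken 24 h later, which gave 4 groups of 4 libraries. The untreated and irradiated groups of a tumor shared the mouse strain, the line and the sort. In the GRCm38.p6 annotation of RefSeq the genes lie at chr5:104435111-104441053 (Spp1), chr17:48346401-48352276 (Trem2), chr7:19696244-19701310 (Apoe), chr6:49036518-49058182 (Gpnmb), chr6:125460266-125494760 (Cd9), chr14:47373860-47386167 (Lgals3), chr3:10012585-10016610 (Fabp5) and chr2:164839518-164857708 (Pltp). The 8 genes were described in macrophage-like, monocyte-like and other classes of barcodes, in sums of UMIs per library.

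Lipid-associated macrophages take up and store lipid from dying cells and are found in obese fat, in atherosclerotic plaques, around amyloid in the brain and in tumors. TREM2 is a surface receptor for lipids and lipoproteins that signals through the adaptor TYROBP, and APOE is both one of its ligands and a carrier of cholesterol that macrophages export. SPP1 encodes osteopontin, a secreted protein that binds integrins and CD44 and that is made by macrophages, by other activated leukocytes and by many tumor and stromal cells.

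The regions before the starts of Spp1, Trem2 and Gpnmb are shown. They were picked by name together with Apoe, which had no entry at its annotated gene start. Of the 6 promoters searched, these 3 held a match to at least 1 of 4 motifs of factors at work in myeloid cells. The share of all promoters that held any of the 4 motifs was not counted. The sequences are the 250 bases before the annotated start in the mouse RefSeq annotation of GRCm38.p6, on the strand of the gene, at chr5:104434861-104435110 for Spp1, chr17:48346151-48346400 for Trem2 and chr6:49036268-49036517 for Gpnmb. Capitals mark the matches.
Spp1: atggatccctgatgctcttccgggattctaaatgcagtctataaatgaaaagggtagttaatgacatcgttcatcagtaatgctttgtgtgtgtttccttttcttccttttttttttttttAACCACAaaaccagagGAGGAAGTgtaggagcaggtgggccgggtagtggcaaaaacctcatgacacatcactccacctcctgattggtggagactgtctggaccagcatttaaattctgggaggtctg
Trem2: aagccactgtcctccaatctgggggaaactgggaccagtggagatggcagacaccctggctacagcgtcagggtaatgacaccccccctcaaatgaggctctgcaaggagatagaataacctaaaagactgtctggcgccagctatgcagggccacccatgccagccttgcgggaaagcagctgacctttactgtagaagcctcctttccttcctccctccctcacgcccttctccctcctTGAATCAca
Gpnmb: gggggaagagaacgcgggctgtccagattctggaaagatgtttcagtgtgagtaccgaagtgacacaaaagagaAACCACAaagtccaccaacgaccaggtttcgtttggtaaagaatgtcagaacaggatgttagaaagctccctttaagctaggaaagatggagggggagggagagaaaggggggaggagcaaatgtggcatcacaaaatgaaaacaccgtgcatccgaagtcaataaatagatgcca

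Both strands were searched. The PU.1-type motif GAGGAAGT lay 113 bases before the Spp1 start, and 2.44% of 32851 promoters of the same length held it. The RUNX-type motif AACCACA lay 129 bases before the Spp1 start and 176 bases before the Gpnmb start, and 4.4% of promoters held it. The AP-1-type motif TGANTCA lay 9 bases before the Trem2 start, and 6.75% of promoters held it. The E-box CACGTG, which factors of the MiT/TFE family can bind and which 6.02% of promoters held, was not among these letters in any of the 6 promoters searched, those of Spp1, Trem2, Gpnmb, Cd9, Lgals3 and Pltp. These matches are letters and not measured sites.

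The 16 libraries held 1008 to 4538 called barcodes and 3240877 to 43776342 UMIs. The MC38 libraries shared barcodes with each other: 769 of 2632 distinct barcodes were present in all 8 of them, against 18136 distinct barcodes among 18835 in Panc02-SIY. Each barcode was therefore kept only in the library of its tumor where it had most UMIs, which left 147 to 609 barcodes per MC38 library and 1113 to 4452 per Panc02-SIY library, and results with every barcode kept are given where they differ. A barcode's copies in different MC38 libraries had a median correlation of 0.69, against 0.40 for random pairs of barcodes (0.57 and 0.32 in Panc02-SIY), and barcodes that were richer in another library held 13.6% to 57.2% of the UMIs of an MC38 library, against at most 0.975% in Panc02-SIY. Whether MC38 libraries hold molecules of one another, and so are less independent than the tests take them to be, was not tested. Barcodes were grouped by their expression with the 8 genes left out of the grouping. The genes of the lists described below, apart from the p53 targets, were left out as well. The groups were named from markers among which none of the 8 stands. The 12 macrophage markers, which include the complement genes C1qa, C1qb and C1qc, summed to 11363 to 15959 CPM in macrophage-like barcodes of the libraries. CPM are UMIs scaled to a common total for each library's sum. None of the 12 was at 0 in the sum of any group. The class was named from these same markers, so their levels are no test of the name. As a check of the radiation label, 8 of 8 p53 targets tested in these barcodes were higher after 12 Gy in each tumor, Phlda3 by a log2 fold change of 4.07 (SE 0.23) in MC38 and 3.49 (SE 0.34) in Panc02-SIY. The tumor lines were in separate libraries with only 12 barcodes in common, so a difference between the tumors and a difference in the handling of their libraries cannot be told apart.

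In MC38 tumors the UMIs of the genes lay mostly in the barcodes that were named macrophage-like when both tumors were clustered together. Macrophage-like barcodes made up 64.6% of untreated and 61.1% of irradiated MC38 barcodes and held 92.0% to 99.3% of the UMIs of each of the 8 genes in untreated tumors and 81.6% to 100% in irradiated tumors. These barcodes were also deeper than T cell-like ones, at medians of 20304 and 17659 UMIs in untreated and irradiated tumors against 3283.5 and 3497. They therefore held a larger share of all UMIs than of barcodes. The shares of the genes were not scaled for this, and the share over all genes was not counted beside them. Over all barcodes of untreated libraries 1 to 4 Trem2 stood at 413, 326, 396 and 444 CPM. In their macrophage-like barcodes it stood at 490, 384, 451 and 484 CPM. The shares alone thus do not show that a gene was particular to macrophage-like barcodes. Trem2 ran at 452 ± 48.8 CPM (SD, n = 4 libraries) in untreated macrophage-like barcodes and at 15.5 ± 14.2 CPM in T cell-like barcodes of the same libraries. Apoe stood at 12215 ± 728 CPM in macrophage-like barcodes, against 438 ± 146 CPM in T cell-like barcodes and 303 ± 80.0 CPM in conventional dendritic cell (cDC)-like barcodes (n = 3). Neither the T cell-like nor the cDC-like range of Trem2 or Apoe reached the macrophage-like range. Counts are of 3' tags and were not scaled by transcript length, so levels are compared here within a gene only. That name depends on the clustering. With the MC38 barcodes clustered on their own, 923 of these macrophage-like barcodes were named monocyte-like and 531 macrophage-like, and the tumor had 964 monocyte-like and 558 macrophage-like barcodes in all. The largest of those monocyte-like clusters, with 402 barcodes, had 3 of the 10 monocyte markers raised over the mean of the clusters, the fewest that allow a name. Levels of the genes in the classes named that way are given with the monocytes.

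In Panc02-SIY tumors the genes were spread over several classes. Macrophage-like barcodes were 22.1% of untreated and 14.4% of irradiated barcodes. They held most of the Trem2 UMIs (77% untreated, 63.4% irradiated) and Apoe UMIs (80.7% and 76.8%), and monocyte-like barcodes held most of the remaining Trem2 UMIs (15.1% and 32.9%). Spp1, by contrast, lay mostly in unnamed clusters led by Cp, Mgp and Cyr61, genes of non-immune cells: these were 2.13% of untreated barcodes and held 90.0% of the Spp1 UMIs, and 0.962% of irradiated barcodes with 53.9%. These shares pool unequal libraries and rest mostly on library 4. Libraries 1 to 4 had 286, 1653, 565 and 9604 Spp1 UMIs in untreated and 960, 769, 574 and 3278 in irradiated tumors. In irradiated library 1 macrophage-like barcodes held 484 of the 960. Cd9, a tetraspanin of the cell surface, was shared between neutrophil-like barcodes (29.9% of UMIs untreated, 47.7% irradiated) and the same unnamed clusters (39.3% and 12.9%). Fabp5, a carrier of fatty acids in the cytosol, passed from mainly macrophage-like (29.5%) and T cell-like (29.2%) barcodes in untreated tumors to mainly monocyte-like (43.9%) and cDC-like (31.4%) barcodes in irradiated ones. Gpnmb, a lysosomal and surface glycoprotein, had only 90 UMIs in the untreated Panc02-SIY libraries together and 200 in the irradiated ones, of which neutrophil-like barcodes held 12.2% and 59.5%.

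**Figure D1:**
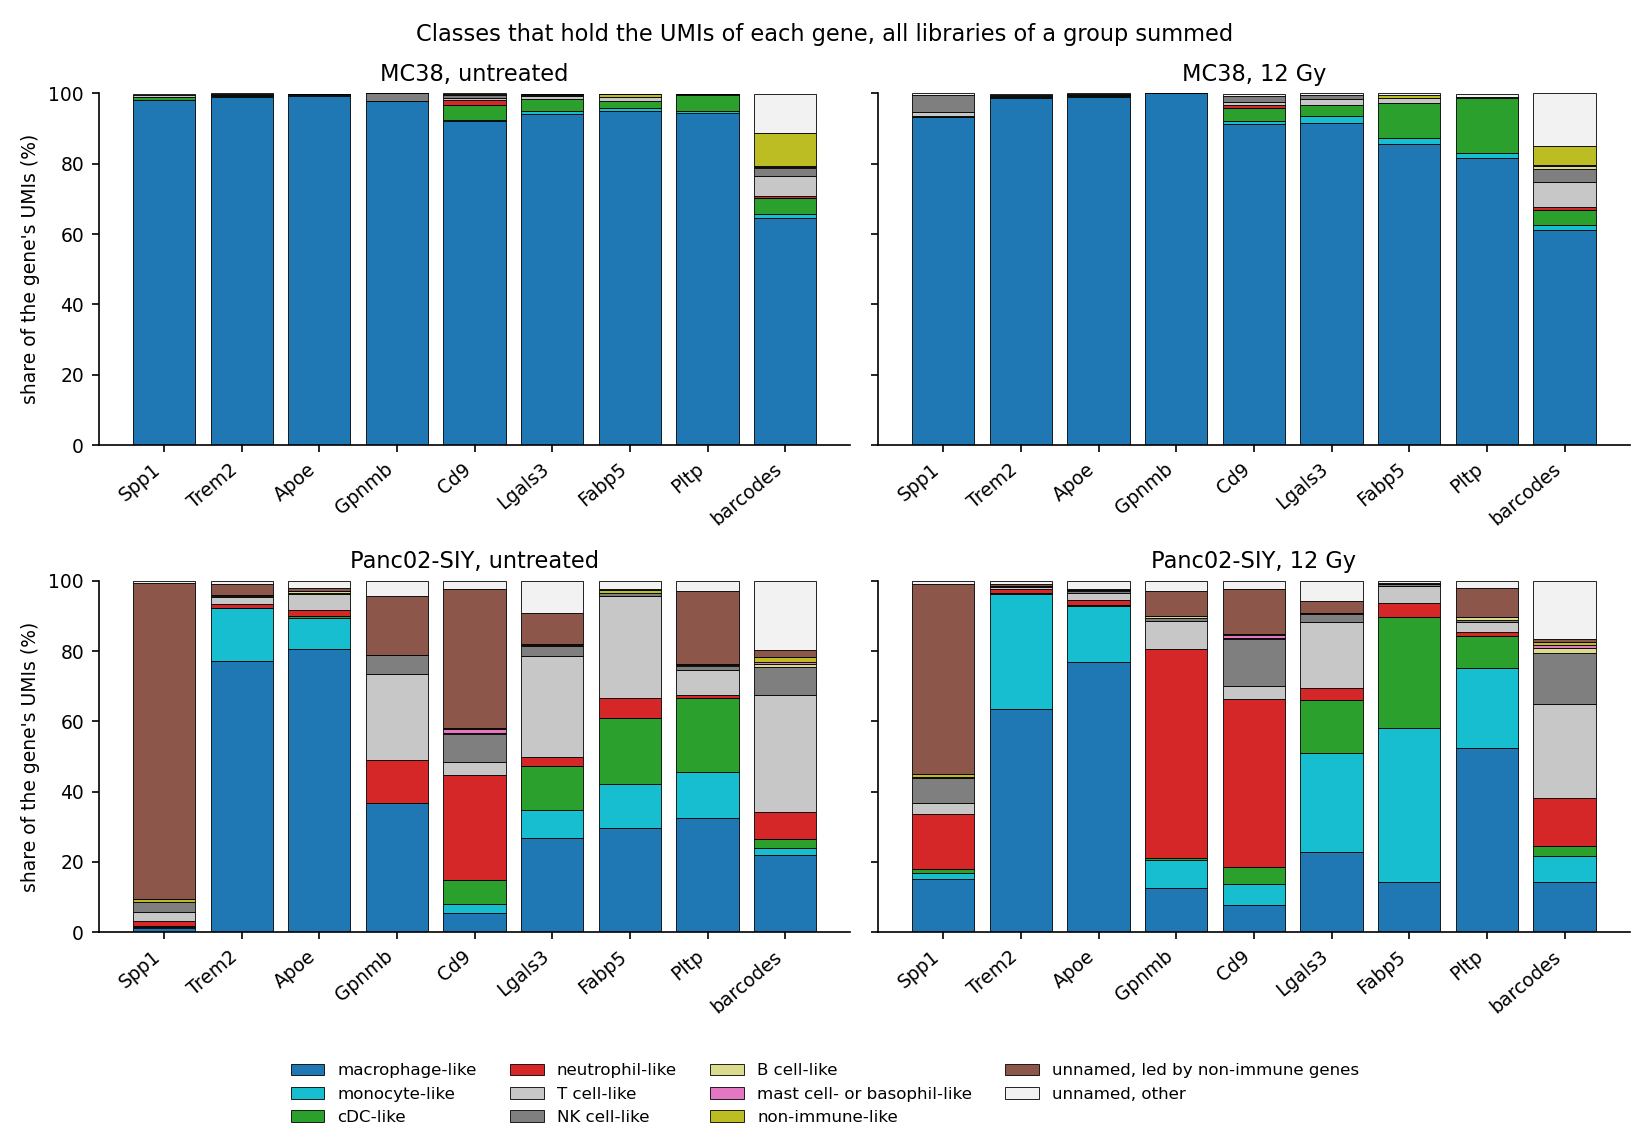
Share of each gene's UMIs (percent, vertical axis) held by each class of barcodes, with the 4 libraries of a group summed, beside the share of barcodes in each class (last bar of each panel). Macrophage-like barcodes held 92.0% to 99.3% of the UMIs of each gene in untreated MC38, while 90.0% of Spp1 UMIs in untreated Panc02-SIY lay in unnamed clusters led by non-immune genes. The shares are not scaled for depth per barcode, and library 4 weighed most in the Spp1 shares of Panc02-SIY.

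The order of the classes differed between the genes. For Trem2 in untreated Panc02-SIY, monocyte-like barcodes stood first with 30.2 ± 4.49 CPM (SD, n = 4), above macrophage-like barcodes with 18.4 ± 6.20 CPM, and their ranges did not overlap, while every other class had a mean of 1.98 CPM or less. After 12 Gy the order was reversed, with 33.6 ± 11.3 CPM in macrophage-like and 24.5 ± 4.47 CPM in monocyte-like barcodes, but the ranges overlapped. For Cd9 in untreated Panc02-SIY, neutrophil-like barcodes stood first at 1675 ± 392 CPM and did not overlap with any other class, and macrophage-like barcodes came eighth among 11 classes at 72.4 ± 64.3 CPM. For Lgals3, which encodes the glycan-binding protein galectin-3, the monocyte-like (1066 ± 109 CPM) and cDC-like (897 ± 150 CPM) ranges overlapped with each other. Macrophage-like barcodes stood at 514 ± 235 CPM for Lgals3, below the monocyte-like range in all 4 libraries.

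**Figure D2:**
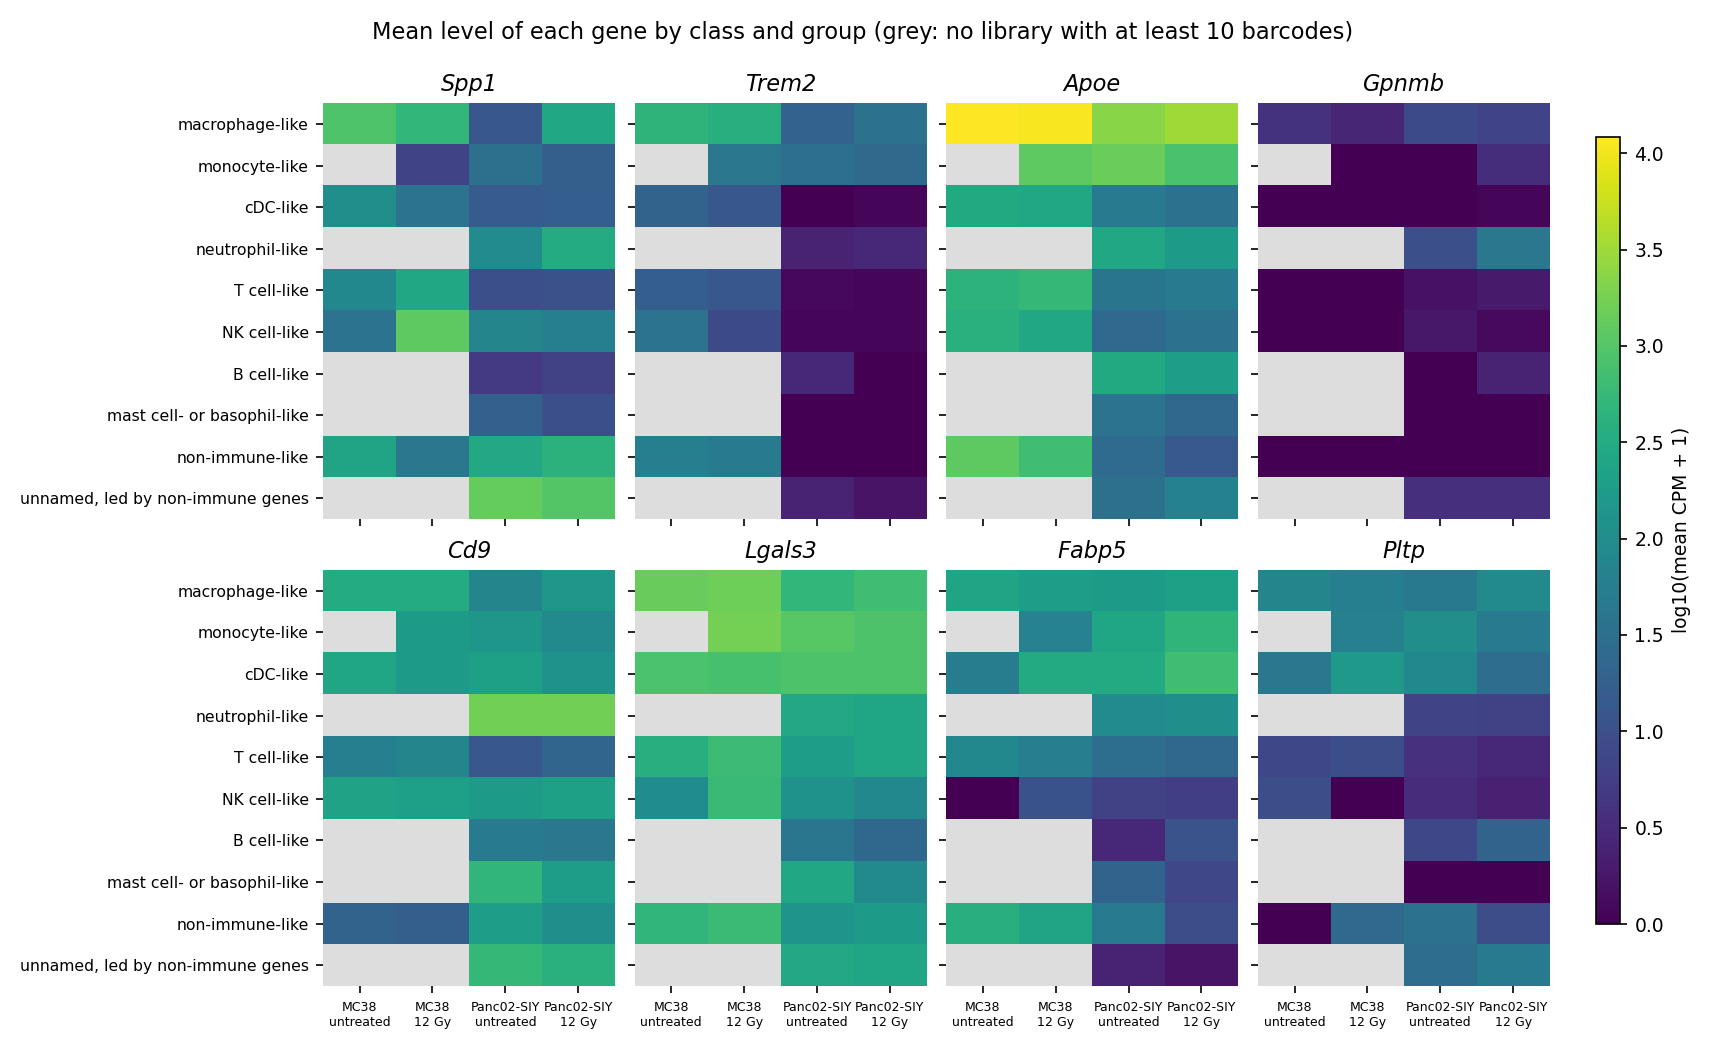
Mean CPM over the libraries of a group for each gene, as log10 of the mean plus 1 (color), by class (vertical) and group (horizontal), with grey where no library had at least 10 barcodes of the class. Trem2 and Apoe were brightest in MC38 macrophage-like barcodes (mean Trem2 452 CPM untreated), Cd9 in Panc02-SIY neutrophil-like barcodes (mean 1675 CPM untreated), and Spp1 was bright also in the unnamed Panc02-SIY clusters led by non-immune genes (mean 1320.3 CPM untreated); the bright Spp1 square of irradiated MC38 NK cell-like barcodes rests on 2 libraries.

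The first question was how the genes differed between the macrophages of the 2 tumors. Spp1 in macrophage-like barcodes of untreated MC38 libraries 1 to 4 stood at 1035, 1466, 534 and 657 CPM. In untreated Panc02-SIY it stood at 22.1, 10.2, 7.47 and 7.96 CPM. Every MC38 library was above every Panc02-SIY library, and the log2 difference was 6.81 (SE 1.37, edgeR quasi-likelihood adjusted p = 0.00128). Trem2 was at 490.2, 384, 451 and 484 CPM in untreated MC38. In untreated Panc02-SIY it was at 22.1, 10.6, 24.5 and 16.5 CPM. The groups lay far apart, at a log2 difference of 4.89 (SE 0.23, adjusted p = 7.18e-12). Apoe was at 13118, 11549, 11708 and 12485 CPM in untreated MC38. In untreated Panc02-SIY it was at 3300.1, 2944, 1969 and 1028 CPM. Again no library overlapped (log2 difference 2.54, SE 0.34, adjusted p = 4.98e-05).

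In all, 6 of the 8 genes were called higher in untreated MC38 macrophage-like barcodes, where a call throughout needs an adjusted p under 0.1 together with more than 1.3-fold change. Among the 10319 genes tested, 24.6% were called higher and 48.4% were called in either direction. Beside Spp1, Trem2 and Apoe these were Cd9 (log2 difference 2.86, SE 0.65, adjusted p = 0.00297), Lgals3 (1.63, SE 0.39, adjusted p = 0.00437) and Pltp, the phospholipid transfer protein that remodels lipoproteins (1.31, SE 0.42, adjusted p = 0.0221). Cd9 lay between 301 and 355 CPM in MC38 and between 30 and 168 CPM in Panc02-SIY, and Lgals3 between 1275 and 1562 CPM against 329 and 832 CPM, so neither overlapped. Pltp lay between 58.3 and 90.1 CPM in MC38 and between 16.8 and 75.2 CPM in Panc02-SIY, and its groups overlapped. Without Panc02-SIY untreated replicate 4, Pltp was not called (log2 difference 0.86, adjusted p = 0.117). The fatty acid carrier Fabp5 (log2 difference 1.02, SE 0.71, adjusted p = 0.263) and Gpnmb (log2 difference -0.23, SE 1.05, adjusted p = 0.889) were not called. Fabp5 was called without Panc02-SIY untreated replicate 1 (1.61, adjusted p = 0.0593) and with the 8 genes allowed in the clustering (2.70, adjusted p = 0.00262). Gpnmb rested on 1 to 20 UMIs per library in macrophage-like barcodes, and the 20 UMIs of Panc02-SIY untreated library 3 were all in 1 barcode. With the 8 genes allowed in the clustering Gpnmb was called higher in MC38 (2.63, adjusted p = 0.0174). That setting also let back into the clustering the genes of the lists that the main clustering left out. The 8 genes could thus help to form the groups in which they were tested. Its calls of Fabp5 and Gpnmb are therefore not independent of the grouping, and the part of the 8 genes and of the list genes was not told apart.

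Between irradiated tumors 4 of 8 genes were higher in MC38, where 26% of genes were called higher and 50.5% in either direction. Trem2 stood at 323, 379, 362 and 396 CPM in irradiated MC38 and at 38.5, 47.1, 23.0 and 25.6 CPM in irradiated Panc02-SIY, a log2 difference of 3.77 (SE 0.21, adjusted p = 6.15e-11). Apoe stood at 10984, 12549, 9583 and 11414 CPM in irradiated MC38 and at 3365, 3554, 4069.5 and 1632 CPM in irradiated Panc02-SIY, a log2 difference of 2.06 (SE 0.33, adjusted p = 0.000233). For both genes the groups did not overlap. Lgals3 (log2 difference 1.43, SE 0.39, adjusted p = 0.00847) and Cd9 (1.59, SE 0.59, adjusted p = 0.0396) were also called. With every barcode kept, Lgals3 and Cd9 were no longer called, and their log2 differences became -0.04 and -0.56. Barcodes were clustered anew in that setting, and too few untreated Panc02-SIY libraries kept at least 10 macrophage-like barcodes for a fit. The Panc02-SIY barcodes compared there were thus not the same set as in the main fit. Cd9 was also not called without Panc02-SIY irradiated replicate 2 (1.31, adjusted p = 0.124), 3 (1.43, adjusted p = 0.111) or 4 (1.15, adjusted p = 0.111). Spp1 was not called (log2 difference 1.24, 95% interval -0.68 to 3.17, adjusted p = 0.321), but without Panc02-SIY irradiated replicate 1 it was (3.65, adjusted p = 0.000788). It was also called with doublets removed (3.43, adjusted p = 0.000542) and at clustering resolution 2 (5.88, adjusted p = 5.59e-06). In all Spp1 was called in 4 of 29 alternatives, whose log2 differences ran from -0.75 to 6.27. The setting without the Panc02-SIY barcodes of cluster 5, described below, is among these 4. Pltp, Fabp5 and Gpnmb had log2 differences of -0.26, 0.21 and -0.35.

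The macrophage-like barcodes of the tumors lay in different clusters, and they differed in depth. Of the MC38 barcodes, 548 untreated and 478 irradiated were in cluster 5, led by Arg1, Ccl12 and Lyz2 beside Apoe and Trem2 themselves. Of the Panc02-SIY barcodes, 1325 untreated and 603 irradiated were in cluster 1, led by Ccl8 and Aif1, and 605 and 469 in cluster 6, led by Fcgr4 and Cd72. The median depth was 20304 and 17659 UMIs per barcode in untreated and irradiated MC38 against 2022 and 2372 UMIs in Panc02-SIY. These depths follow the keeping of each barcode in its richest library, which left out 73.3% of MC38 and 3.71% of Panc02-SIY barcodes. Library medians over all classes were 1419 to 2070.5 UMIs before and 2991 to 11097 UMIs after that step in MC38. In Panc02-SIY they were 3175 to 6412 UMIs before and 3538 to 6594.5 UMIs after it. Markers of other cells also moved with the tumor: the 10 monocyte markers summed to 2554 to 3663 CPM in untreated MC38 macrophage-like barcodes against 193 to 436 CPM in Panc02-SIY, and the 10 T cell markers had a mean sum of 23.9 CPM against 484 CPM. None of the monocyte markers was at 0 in any group. The part of depth and of these markers in the tumor difference was not tested. Within cluster 1, which held barcodes of both tumors, Spp1 stood at 543 CPM on average in untreated MC38 and 19.9 CPM in Panc02-SIY (log2 difference 4.70). Trem2 stood there at 336 and 13.7 CPM (log2 difference 4.54), and both were called where 34.6% of 1633 genes were. The tumors were not matched for depth within cluster 1. Whether its barcodes carried RNA of other cells of their tumor was not tested.

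**Figure D3:**
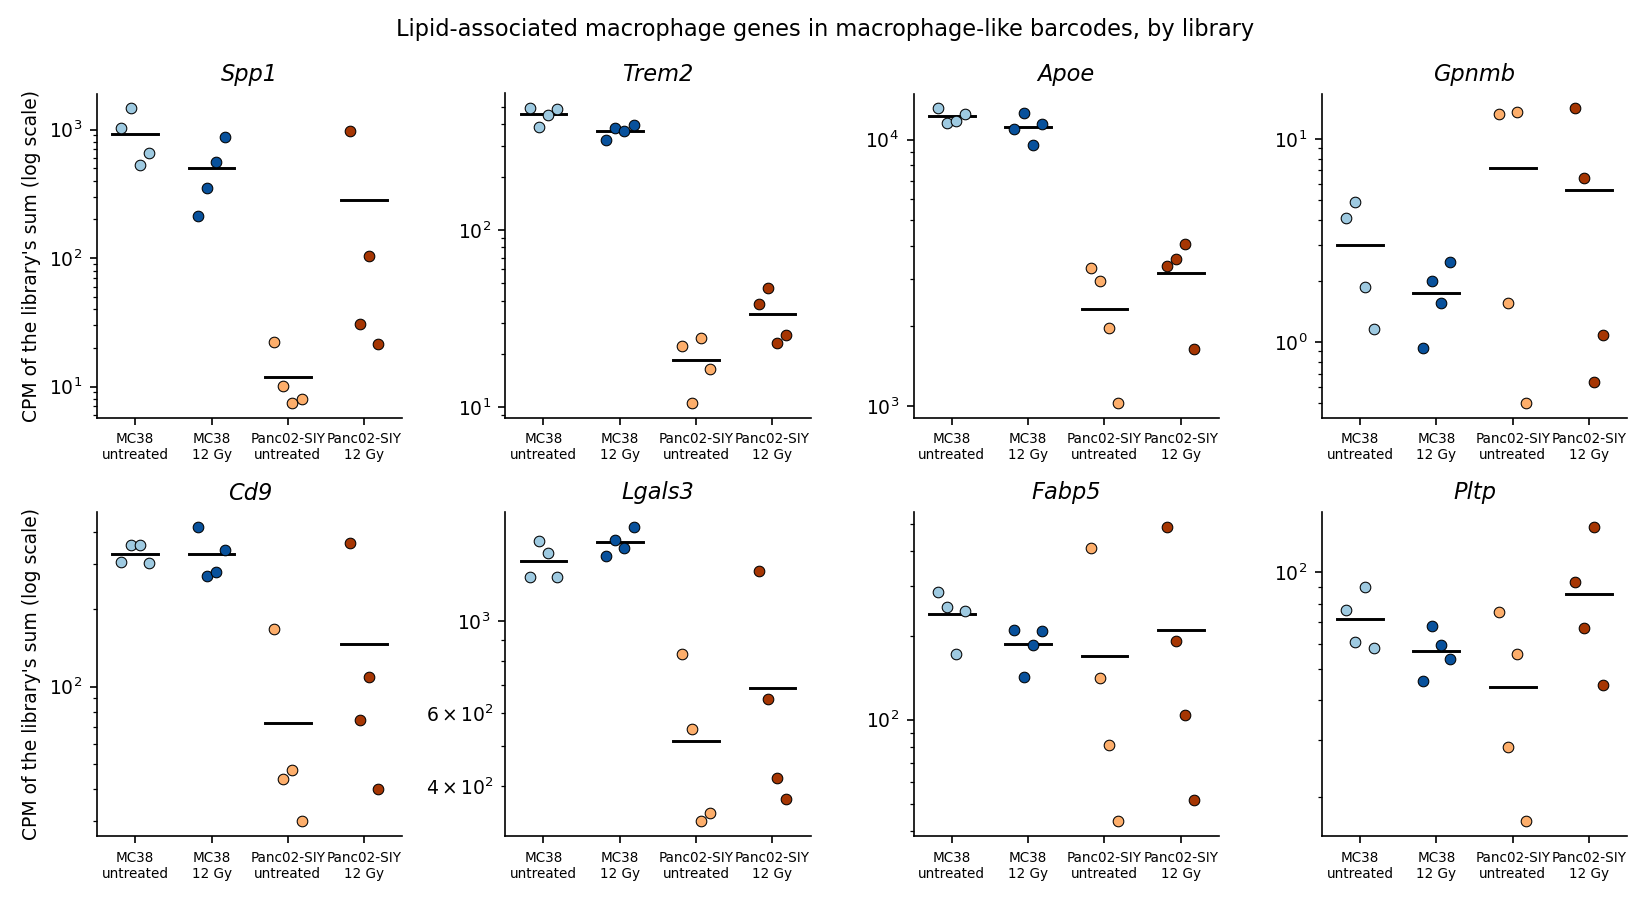
CPM of each gene in macrophage-like barcodes (vertical axis, log scale), 1 point per library, by group, with the mean as a bar. All 8 MC38 libraries lay above all 8 Panc02-SIY libraries for Trem2 and Apoe, and irradiated Panc02-SIY library 1 stood apart for Spp1 at 980.0 CPM.

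The next question was what 12 Gy changed within a tumor. In MC38 macrophage-like barcodes none of the 8 genes was called, where 14% of 10319 genes were, and 2644 genes had an unadjusted p below 0.05. Spp1 stood at 214, 350.1, 556 and 872 CPM in irradiated libraries, which overlapped with the untreated range of 534 to 1466 CPM. Its log2 fold change was -0.75 (SE 0.92, 95% interval -2.55 to 1.05, adjusted p = 0.679). At clustering resolution 2 Spp1 was called lower (-1.18, adjusted p = 0.0639), as was Cd9 (-0.49, adjusted p = 0.0205). Trem2 had a narrower interval, with a log2 fold change of -0.19 (SE 0.17, 95% interval -0.52 to 0.14, adjusted p = 0.532). Apoe (log2 fold change -0.02, SE 0.32), Cd9 (0.09, SE 0.53), Lgals3 (0.27, SE 0.37), Fabp5 (-0.25, SE 0.64), Pltp (-0.21, SE 0.37) and Gpnmb (-0.32, SE 0.99) were not called either. In cluster 11 alone, a group of MC38 macrophage-like barcodes led by Pid1 and Stab1, Trem2 was lower after 12 Gy (mean 239 CPM untreated, 132 CPM irradiated, log2 fold change -0.85, SE 0.23, adjusted p = 0.0149), where 7.5% of 3121 genes were called. With each tumor clustered on its own, Lgals3 was called higher in irradiated MC38 macrophage-like barcodes (log2 fold change 0.57, SE 0.10, adjusted p = 0.00197), where 13.7% of genes were. The 10 monocyte markers in MC38 macrophage-like barcodes summed to 2554 to 3663 CPM before and 3875 to 4975 CPM after 12 Gy, and their part in these values was not tested.

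In Panc02-SIY macrophage-like barcodes 3 of 8 genes, Spp1, Trem2 and Pltp, were called higher after 12 Gy, where 4.05% of genes were called higher and 8.42% in either direction. Trem2 stood at 22.1, 10.6, 24.5 and 16.5 CPM before and 38.5, 47.1, 23.0 and 25.6 CPM after, so that 3 irradiated libraries were above all untreated ones and 1 was within their range. The log2 fold change was 0.93 (SE 0.24, adjusted p = 0.0268). These Trem2 levels were low and rested on 5, 27, 36 and 197 UMIs before and 19, 66, 36 and 188 UMIs after. Pltp stood at 75.2, 28.6, 55.7 and 16.8 CPM before and 93.1, 67.1, 139 and 44.7 CPM after, with overlap, and its log2 fold change of 1.37 (SE 0.45) had an adjusted p of 0.0992, next to the threshold. Its values rested on 17, 73, 82 and 200 UMIs before and 46, 94, 217 and 328 UMIs after. Spp1 stood at 22.1, 10.2, 7.47 and 7.96 CPM before and 980.0, 30.7, 104 and 21.4 CPM after, with a log2 fold change of 4.82 (SE 1.35, adjusted p = 0.0593). Library 1 was far above the others, and library 4 lay within the untreated range. Spp1 was not called without Panc02-SIY irradiated replicate 1 (2.42, adjusted p = 0.119) or without Panc02-SIY untreated replicate 2 (4.91, adjusted p = 0.122), 3 (4.76, adjusted p = 0.125) or 4 (4.64, adjusted p = 0.207). Trem2 was not called without Panc02-SIY untreated replicate 4 (0.93, adjusted p = 0.133). Pltp was called in 8 of 29 alternatives, and leaving out any 1 of the MC38 libraries ended its call (adjusted p 0.11 to 0.127). Cd9 (log2 fold change 1.36, SE 0.67, adjusted p = 0.283), Apoe (0.46, SE 0.32), Lgals3 (0.47, SE 0.39), Fabp5 (0.56, SE 0.74) and Gpnmb (-0.19, SE 1.18) were not called. This comparison shares its untreated Panc02-SIY libraries with the comparison of untreated tumors, so their values are not independent. Markers of other cells moved with the dose in these barcodes: the 10 monocyte markers summed to 193 to 436 CPM before and 365 to 1881 CPM after. The 10 T cell markers summed to 375 to 726 CPM and 162 to 406 CPM. None of these markers was at 0 in the sum of either group. Their part in the 3 calls was not tested.

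The Spp1 UMIs of irradiated Panc02-SIY macrophage-like barcodes lay in very few barcodes. In libraries 1 to 4 they numbered 484, 43, 162 and 157, against 5, 26, 11 and 95 in the untreated libraries. Barcodes with at least 1 Spp1 UMI were 7 of 153, 9 of 200, 21 of 203 and 37 of 697. The single richest barcode of each library held 58.5%, 60.5%, 49.4% and 42.7% of the UMIs, and the 3 richest held 97.3%, 83.7%, 79.6% and 75.2%. The Spp1 of MC38 macrophage-like barcodes was spread more widely, with 114 of 161, 100 of 128, 149 of 217 and 245 of 351 untreated barcodes holding a UMI and 6.90% to 18.5% of UMIs in the richest barcode.

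Nearly all of those UMIs were in cluster 5, the cluster that held most MC38 macrophage-like barcodes. Cluster 5 took 6, 13, 14 and 19 barcodes of irradiated Panc02-SIY libraries 1 to 4, and these held 482, 35, 140 and 119 Spp1 UMIs. In untreated Panc02-SIY it took 3, 2, 5 and 2 barcodes with 1 Spp1 UMI in all. With the Panc02-SIY barcodes of cluster 5 left out, a setting chosen after these values were seen, the log2 fold change of Spp1 was -0.24 (SE 0.81, adjusted p = 0.932), that of Trem2 was 0.79 (SE 0.29, adjusted p = 0.125), and Pltp alone was called (1.79, SE 0.43, adjusted p = 0.0309), where 7.6% of genes were. In the same setting Spp1 was higher in irradiated MC38 than in irradiated Panc02-SIY (log2 difference 6.27, SE 0.63, adjusted p = 3.15e-06), where 52.7% of genes were called. The setting took barcodes out of Panc02-SIY only, and these held most of the Spp1 UMIs of its irradiated libraries. A lower Spp1 in irradiated Panc02-SIY was therefore built into it, and no conclusion is drawn from these Spp1 values. The clusters that held most Panc02-SIY macrophage-like barcodes had Spp1 means of 19.9 CPM before and 10.7 CPM after in cluster 1 (log2 fold change -0.63, SE 0.82, adjusted p = 0.729), and of 7.52 CPM in 3 untreated and 7.56 CPM in 4 irradiated libraries in cluster 6. For Trem2 the means were 13.7 and 29.8 CPM in cluster 1 (log2 fold change 1.00, SE 0.47, adjusted p = 0.299, where 4.04% of genes were called), and 14.9 and 23.9 CPM in cluster 6.

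Whether the response to 12 Gy differed between the tumors was tested as a difference of the log2 fold changes in macrophage-like barcodes, MC38 minus Panc02-SIY. None of the 8 genes was called by edgeR, where 5 of 10319 genes (0.0485%) were and 833 had an unadjusted p below 0.05. Spp1 had a difference of -5.57 (SE 1.64, adjusted p = 0.378), Trem2 of -1.12 (SE 0.29, adjusted p = 0.268) and Pltp of -1.57 (SE 0.58, adjusted p = 0.487), and these 3 had an unadjusted p below 0.05. DESeq2 called 42 genes and with them Spp1 (adjusted p = 0.0391) and Trem2 (adjusted p = 0.0466). With the Panc02-SIY barcodes of cluster 5 left out the difference of Spp1 was -0.54 (SE 0.91, adjusted p = 0.965), where 0.117% of genes were called. That setting takes out most of the Spp1 UMIs of irradiated Panc02-SIY macrophage-like barcodes, so it cannot decide whether the responses differ.

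**Figure D4:**
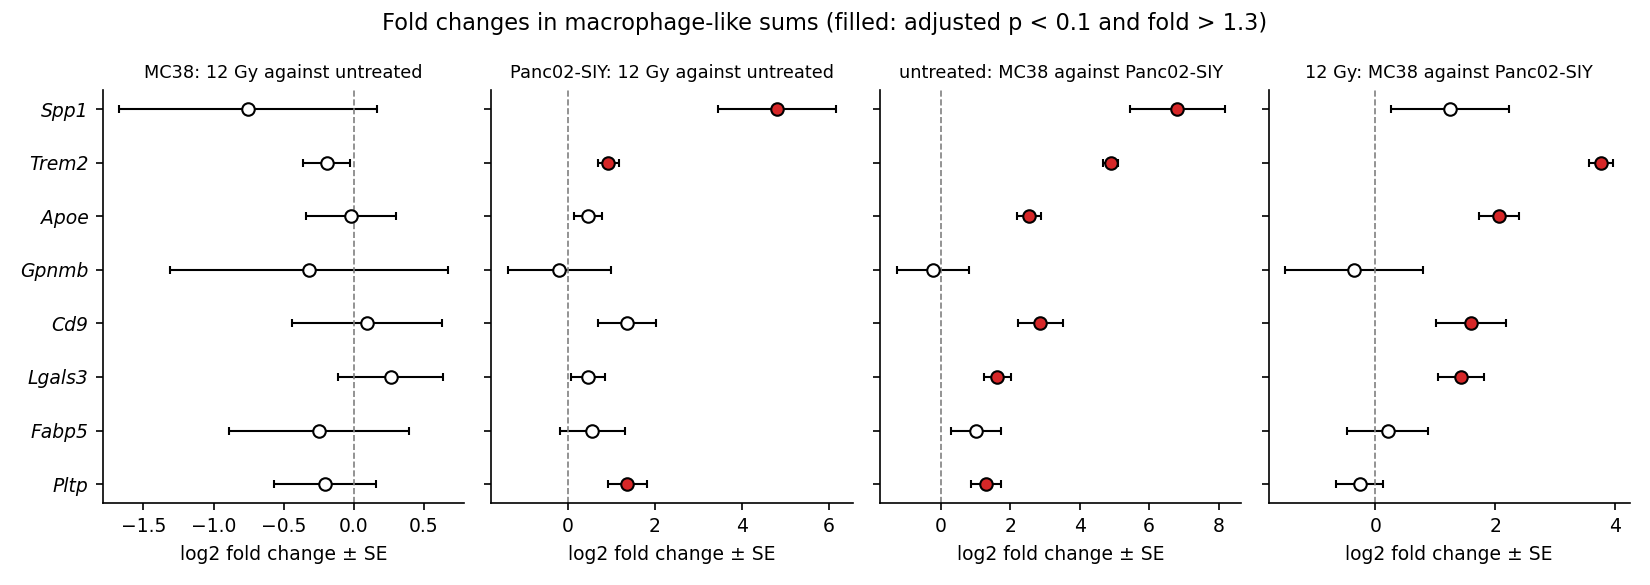
Log2 fold change with its standard error (horizontal axis) of each gene in macrophage-like sums for 4 comparisons, filled where called. No gene was called in MC38 after 12 Gy, and Spp1, Trem2 and Pltp were called in Panc02-SIY after 12 Gy. Spp1 was not called without the Panc02-SIY barcodes of cluster 5, a setting that took out most of its UMIs and so decides nothing about it. Trem2 and Apoe were higher in MC38 in both comparisons of the tumors.

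Monocytes enter tumors from the blood and give rise to many of their macrophages, so the genes were also followed in monocyte-like barcodes, which were led by Chil3, Retnla and Lyz2. With both tumors clustered together MC38 libraries held 1 to 10 of them, so the comparison was made in Panc02-SIY only, with 29 to 76 barcodes in untreated and 68 to 242 in irradiated libraries. Their share of barcodes was 2.47% ± 1.55 (SD, n = 4) before and 7.03% ± 1.38 after 12 Gy. Apoe stood at 1742, 1436, 1545 and 1236 CPM in untreated and 1058, 826, 725 and 677 CPM in irradiated libraries. All irradiated libraries were below all untreated ones, and the log2 fold change was -0.88 (SE 0.15, adjusted p = 0.0124). With each tumor clustered on its own it was not called (-0.75, SE 0.16, adjusted p = 0.258). It was the only 1 of 7 genes tested that was called, where 0.339% of 7972 genes were. Gpnmb was at 0 in all 4 untreated libraries and was not tested.

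The other genes of monocyte-like barcodes did not pass the test. Fabp5 stood at 190.0, 274, 305 and 276 CPM before and 486, 266, 685 and 428 CPM after, with overlap at library 2 (log2 fold change 0.78, SE 0.25, adjusted p = 0.339). It was called without Panc02-SIY irradiated replicate 2 (0.97, adjusted p = 0.0331) and without the low-count filter (0.83, adjusted p = 0.000135). Trem2 ran from 25.6 to 36.4 CPM before and from 19.8 to 30.5 CPM after (log2 fold change -0.35, SE 0.26, adjusted p = 0.741). Cd9 did not overlap, at 119 to 217 CPM before and 63.2 to 118 CPM after, with a log2 fold change of -0.77 (SE 0.21, adjusted p = 0.163). It was called in 5 of 21 alternatives, which as a whole ran from -0.999 to 0.26. The calls came with every barcode kept (-0.82, adjusted p = 0.00632), without the low-count filter (-0.72, adjusted p = 0.0110) and with thinning (-0.80, adjusted p = 0.0923). They also came with doublets removed (-0.999, adjusted p = 0.0542) and without Panc02-SIY irradiated replicate 1 (-0.91, adjusted p = 0.0534). Lgals3 had means of 1066 and 886 CPM (log2 fold change -0.29, SE 0.14, adjusted p = 0.550). Spp1 (log2 fold change -0.87, adjusted p = 0.811) and Pltp (-1.05, adjusted p = 0.728) were called in 0 of 21 alternatives. The Spp1 value was unstable and ran from -1.29 to 2.77 over these alternatives. Thus Apoe was called lower in the monocyte-like barcodes and was not called in the macrophage-like barcodes of the same libraries, and the difference between the classes was not tested.

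With MC38 clustered on its own, a setting chosen after the joint classes were seen, its monocyte-like barcodes lay in 3 clusters. Cluster 0, led by Ccl24, Arg1 and Ier3, held 222 untreated and 180 irradiated barcodes. Cluster 1, led by Chil3, Plac8 and Ly6c2, genes of inflammatory monocytes, was 7.96% ± 2.81 (SD, n = 4) of untreated and 16.2% ± 3.92 of irradiated barcodes per library. Cluster 3, led by Slfn4 and Thbs1, was 7.90% ± 1.25 and 11.7% ± 0.746. Clusters 0, 1 and 3 had 3, 6 and 5 of the 10 monocyte markers raised, and cluster 3 was shallow, at a median of 2769 UMIs. Spp1 in these monocyte-like barcodes stood at 1307, 1128, 591 and 540.5 CPM in untreated and 119.7, 399, 584 and 1103 CPM in irradiated libraries, with overlap (log2 fold change -0.60, SE 0.66, adjusted p = 0.741). Trem2 stood at 370.2, 234, 322 and 376.5 CPM before and 239, 261, 254 and 287 CPM after (-0.28, SE 0.13, adjusted p = 0.332). None of the 7 genes tested was called there, where 4.04% of 8713 genes were and 1342 had an unadjusted p below 0.05. In the macrophage-like barcodes of the same clustering Trem2 had a mean of 525 CPM untreated and 539.8 CPM irradiated, and Spp1 of 904 and 476 CPM. Every one of these MC38 libraries, in both classes, lay above every Panc02-SIY library for Trem2 in macrophage-like or monocyte-like barcodes.

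Neutrophil-like barcodes of Panc02-SIY carried Spp1, Gpnmb and Cd9. Spp1 stood at 171, 71.2, 57.4 and 75.3 CPM in untreated and 477, 302, 159.8 and 386 CPM in irradiated libraries. Only the untreated library 1 and the irradiated library 3 overlapped, and the log2 fold change was 1.85 (SE 0.43, adjusted p = 0.310), where 0.0562% of 5340 genes were called. Gpnmb stood at 30.2, 0, 3.82 and 1.18 CPM before and 21.0, 40.4, 15.6 and 84.6 CPM after, with a log2 fold change of 2.75 (SE 1.07, adjusted p = 0.522). Both genes were concentrated in cluster 18, a neutrophil-like cluster led by Il1f9, Cxcl2, Cxcl3 and Clec4d that held 85 untreated and 201 irradiated barcodes. There Spp1 was at 671, 438 and 706 CPM in the 3 untreated libraries with at least 10 barcodes, on 3, 5 and 7 barcodes with a UMI, and at 2512, 1680.0, 1124 and 1185 CPM in the irradiated ones, with no overlap, on 7 to 16 barcodes per library with a UMI. In irradiated library 1 a single barcode held 134 of the 193 Spp1 UMIs of this cluster, and 3 barcodes held 97.9%. Cd9 was level in neutrophil-like barcodes, at 1675 ± 392 CPM before and 1654 ± 356 CPM after 12 Gy. Neutrophil-like barcodes were 8.38% ± 2.23 of untreated and 14.3% ± 3.45 of irradiated Panc02-SIY barcodes.

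Fabp5 was also followed in cDC-like barcodes of Panc02-SIY, where it stood at 861, 44.9, 231 and 122 CPM in untreated and 533, 984, 553 and 611 CPM in irradiated libraries. The untreated libraries were scattered, and the log2 fold change of 1.12 had an adjusted p of 0.650, where 0.510% of 6857 genes were called. Cluster 23, led by Fscn1, Ccl22 and Ccr7, genes of migratory and mature dendritic cells, had a mean of 1664 CPM in 2 untreated libraries and 2598 CPM in 3 irradiated ones.

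In sums over all CD45+ barcodes, fewer cells of a type and less RNA per cell cannot be told apart. Of the 8 genes, 8 were higher in untreated MC38 than in untreated Panc02-SIY, where 29.1% of 12447 genes were called higher and 61.1% in either direction, and 7 of 8 in irradiated tumors, where 29.9% and 58.5% were. Gpnmb was the least firm of the 8 (log2 difference 0.98, adjusted p = 0.0939), and was called in 9 of 26 alternatives. Gpnmb was the exception in irradiated tumors, with a log2 difference of -0.75 (adjusted p = 0.222). The largest differences among the 8 genes in untreated tumors were those of Trem2 (log2 difference 6.82, SE 0.25) and Apoe (5.03, SE 0.23). Macrophage-like barcodes were 63.2% ± 4.78 of untreated MC38 and 17.9% ± 9.04 of untreated Panc02-SIY barcodes per library. No gene was called between irradiated and untreated MC38, where 11.7% of genes were.

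Between irradiated and untreated Panc02-SIY 4 of 8 genes were higher in these sums, where 7.69% of genes were called higher and 14.7% in either direction. Trem2 stood at 2.62, 2.74, 4.57 and 5.24 CPM in untreated and 7.39, 9.17, 6.39 and 9.54 CPM in irradiated libraries, with no overlap (log2 fold change 0.96, SE 0.22, adjusted p = 0.00969). Fabp5 stood at 94.5, 48.4, 55.5 and 37.6 CPM before and 156, 123, 180.3 and 105 CPM after, again with no overlap (1.20, SE 0.25, adjusted p = 0.00565). Apoe (0.56, SE 0.20, adjusted p = 0.0675) and Gpnmb (1.25, SE 0.46, adjusted p = 0.0784) were called with overlapping groups, Gpnmb on means of 1.5 and 3.55 CPM. Apoe was not called without Panc02-SIY untreated replicate 4 (adjusted p = 0.118) or irradiated replicate 3 (adjusted p = 0.127), nor was Gpnmb without Panc02-SIY untreated replicate 2 (adjusted p = 0.195) or 4 (adjusted p = 0.178) or irradiated replicate 1 (adjusted p = 0.149), 2 (adjusted p = 0.165) or 4 (adjusted p = 0.103). Spp1 was not called, at a log2 fold change of -0.12 (SE 0.58). With the clusters of non-immune genes left out, Spp1 went from a mean of 17.6 to 64.5 CPM, a log2 fold change of 1.76 (adjusted p = 0.0369), where 17.5% of genes were called, and the groups did not overlap. The difference of the radiation responses was called for none of the 8 genes, where 0.345% of genes were and 1472 had an unadjusted p below 0.05, and DESeq2 called 261 genes, 2 of them members of the set.

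The share of macrophage-like barcodes with a UMI was also taken, as a mean over libraries. Such a share does not give the level: the Spp1 UMIs of irradiated Panc02-SIY lay in few barcodes. In barcodes thinned to 1000 UMIs, Trem2 was present in 29.6% of untreated and 21.4% of irradiated MC38 macrophage-like barcodes and in 1.70% and 3.35% of Panc02-SIY ones, which were 75.3%, 66.0%, 5.51% and 9.18% before thinning, at median depths of 20304, 17659, 2022 and 2372 UMIs. T cell-like barcodes, which should lack Trem2, gave thinned shares of 1.25%, 1.83%, 0.0784% and 0.0274%, at median depths of 3283.5, 3497, 8662 and 6323 UMIs. Spp1 was present after thinning in 28.5%, 18.6%, 1.09% and 2.73% of macrophage-like barcodes (71.8%, 52.6%, 4.50% and 6.18% before) and in 8.25%, 6.05%, 0.645% and 0.260% of T cell-like ones. Apoe was present after thinning in 91.7%, 84.9%, 48.4% and 54.2% of macrophage-like barcodes (97.9%, 96.7%, 53.4% and 61.4% before), but also in 46.2% and 51.4% of MC38 T cell-like barcodes against 2.89% and 3.08% of Panc02-SIY ones. Thinning left out 53, 49, 593 and 370 shallower macrophage-like barcodes of the 4 groups. In irradiated MC38 library 1, 98 of 102 Spp1 UMIs of T cell-like barcodes were in 1 barcode.

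Genes around the set were taken from lists. A list of 23 tested genes of the lipid-associated macrophage program had 7 higher and 7 lower in untreated MC38 against Panc02-SIY macrophage-like barcodes (median log2 difference 0.10, all genes 0.01) and 8 higher and 6 lower between irradiated tumors. Beside these counts, and those of the lists that follow, 48.4% of all genes were called between untreated and 50.5% between irradiated tumors. Lipoprotein lipase, Lpl, was lower in MC38 by a log2 difference of -3.24 (SE 0.39, adjusted p = 1.72e-05), against the direction of Trem2 and Apoe in the same barcodes. The lysosomal lipase gene Lipa was also lower (-1.44, SE 0.14, adjusted p = 2.46e-08), and the cholesterol carrier Npc2 (0.75, SE 0.11, adjusted p = 7.15e-06) was higher. Of 15 genes of sterol and lipoprotein handling 5 were higher and 5 lower in both comparisons of the tumors. Pparg, a nuclear receptor for lipids, was lower in untreated MC38 by -4.11 (SE 0.23, adjusted p = 7.44e-12), as was the oxysterol receptor Nr1h3 by -2.76 (SE 0.33, adjusted p = 8.93e-06) and the sterol exporter Abcg1 (-1.93, SE 0.13, adjusted p = 1.37e-10). Lipa, Npc2 and Abcg1, and below Tyrobp, Cd44 and the MC38 value of Lrp1, were named after their values were seen.

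Among 12 genes of TREM2 signaling and shedding, 2 were higher and 7 lower in untreated MC38 (median log2 difference -0.46), and 2 and 5 between irradiated tumors, where 48.4% and 50.5% of all genes were called. Trem1, an activating relative of Trem2 on neutrophils and monocytes, was higher by 3.82 (SE 0.24, adjusted p = 3.94e-11), and Treml4 was lower by -3.61 (SE 0.16, adjusted p = 1.85e-13). The adaptor Tyrobp was not called (-0.19, adjusted p = 0.127). Of 8 tested family relatives of the 8 genes, 5 were higher and 3 lower in untreated and in irradiated MC38, led by Apoc2, a lipoprotein gene of the same genomic cluster as Apoe (4.91, SE 0.70, adjusted p = 5.57e-06), and the galectin gene Lgals1 (3.1, SE 0.17, adjusted p = 3.94e-11). Of 7 osteopontin receptors, 2 were higher and 2 lower in untreated tumors, and 2 and 3 between irradiated tumors, where the integrin Itga9 was lower by -2.66 (SE 0.21, adjusted p = 1.5e-08). Of 4 MiT/TFE factors, which drive lysosomal genes and Gpnmb, 1 was lower in each comparison of the tumors.

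After 12 Gy 14% of all genes were called in MC38 macrophage-like barcodes and 8.42% in Panc02-SIY ones. In MC38 the program list had 3 higher and 1 lower, sterol handling 2 and 2, TREM2 signaling 2 and 0, osteopontin receptors 1 and 0, MiT/TFE factors 0 and 0, and the relatives 3 and 0. In Panc02-SIY the counts were 3 and 0, 2 and 0, 0 and 0, 1 and 0, 0 and 0, and 2 and 0. Lrp1, an endocytic receptor for APOE, was called in both tumors (log2 fold change 0.71, SE 0.11, adjusted p = 0.000202 in MC38, and 1.09, SE 0.12, adjusted p = 1.67e-05 in Panc02-SIY), as were Abcg1 (0.58 and 0.65) and the osteopontin receptor Cd44 (0.80 and 0.56, adjusted p = 0.00566 and 0.0867). Genes of these lists were not called in the difference of the responses, apart from the p53 target Cdkn1a (-1.77, SE 0.21, adjusted p = 0.000351).

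Over 101 class-by-library sums of 9 classes, the 5697 genes with a macrophage-like mean of at least 20 CPM were ranked by how alike their pattern was to that of a gene, as Pearson's r of log2(CPM + 1). Closest to Trem2 were Apoe (0.82), Ccl12 (0.81), Cfb (0.80), Lyz2 (0.76) and Rnase4 (0.76). Closest to Apoe were Trem2 (0.82), Msr1 (0.76), Ctss, Lyz2 and Lgmn (0.74 each). Spp1 had a looser pattern, with Timp2 (0.60), Eno1 (0.55), Tubb6 (0.54), Pkm (0.53) and Tpi1 (0.52) ahead of Trem2 (0.37) and Apoe (0.23). Eno1, Pkm and Tpi1 encode enzymes of glycolysis. Gpnmb was closest to P2ry13 (0.67), Clec4d (0.67), Slc40a1 (0.66), Fpr1 (0.66) and Slc7a11 (0.64). The sums share libraries, depth and shared barcodes, so these values are a description.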

How the data were processed

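Sorted CD45+ tumor cells were profiled with the 10x 3' kit (v3.0) in 16 libraries. The deposited values are raw UMI counts per barcode and gene, which the authors made with Cell Ranger 3.1.0 after bcl2fastq 2.20.0 on mm10, per the submitters' processing notes. Cell calling is the authors' work.

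The 16 matrices were used with no cell filter. Each barcode was kept in its richest library of a tumor (20768 of 28678). Barcodes were clustered with scanpy 1.11.5 (2000 variable genes, 30 principal components, 20 neighbors) and named "-like" from fixed markers. Counts were summed per library over classes with at least 10 barcodes, and tested with edgeR 4.0.16 under R 4.3.3 (TMM scaling, filterByExpr, quasi-likelihood F test, 1 coefficient per group, Benjamini-Hochberg adjustment over all genes tested). The SE of a fit is the absolute log2 fold change divided by the square root of F. Intervals are nominally 95%, as the log2 fold change ± 1.96 SE. They take no account of the residual degrees of freedom and so can be too narrow. Libraries are treated as replicates. The series text gives 4 animals per group and the study's methods 3, so the p-values measure the spread between libraries. Doublets were left in, and an alternative removed the 896 barcodes in the top 5% of Scrublet scores per library (the automatic threshold marked 57).

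The 8 genes were always named, and of the lists at most the 8 called genes with the largest change in a comparison, with genes the text needs for a list's function. The genes, lists and likeness rule were chosen with earlier results of these data known. Alternatives covered DESeq2 1.42.0, RLE scaling, the low-count filter, doublets, thinning, clustering resolution, each tumor alone, every barcode kept and a replicate block. They also covered an adjusted p below 0.05, clusters left out and each library left out. Thinning in the fits drew each library's sum at random down to the lowest mean UMIs per barcode among the libraries. Only the shares of barcodes with a UMI used barcodes thinned to 1000 UMIs.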

Additional observations from a re-analysis of the deposited data

Results flagged for a closer look

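In 4 of 79 groups of 4 libraries 1 library stood apart by Dixon's ratio at the 95% level, a rate close to the 1 in 20 that chance gives. Spp1 in macrophage-like barcodes of irradiated Panc02-SIY was 980.0 CPM in library 1 and 21.4 to 104 CPM in the others. Cd9 in macrophage-like barcodes of untreated Panc02-SIY was 168 CPM in library 1 and 30 to 47.6 CPM in the others. Cd9 in monocyte-like barcodes of untreated Panc02-SIY was 217 CPM in library 2 and 119 to 127 CPM in the others. Pltp in monocyte-like barcodes of irradiated Panc02-SIY was 90.8 CPM in library 2 and 27.6 to 36.1 CPM in the others.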

How the results depend on the processing

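Trem2 and Apoe were called higher in MC38 macrophage-like barcodes under every alternative run for both comparisons of the tumors, and Spp1, Cd9 and Lgals3 under every alternative run for untreated tumors. The setting with every barcode kept, which ended the calls of Cd9 and Lgals3 between irradiated tumors, could not be run for untreated ones. The Panc02-SIY response to 12 Gy in macrophage-like barcodes was the least stable. Of 8 genes, 3 were called, but 1 at an adjusted p below 0.05, 0 at clustering resolution 2, 1 with the Panc02-SIY barcodes of cluster 5 left out and 0 with each tumor clustered alone. Leaving out 1 library gave 0 to 3, with 0 without Panc02-SIY untreated replicate 4 and 1 without Panc02-SIY untreated replicate 2 or irradiated replicate 1. Spp1 lost its call at resolution 2 (-0.13, adjusted p = 0.980), without cluster 5 (-0.24, adjusted p = 0.932) and with each tumor alone (-0.26, adjusted p = 0.830). These values show no change in the other direction, and the setting without cluster 5 took out most of the Spp1 UMIs. Spp1 was called in 20 of 29 alternatives, against 25 of 29 for Trem2 and 8 of 29 for Pltp. In MC38 the count of 0 became 2 at resolution 2 and 1 with each tumor alone (Cd9 -0.49 and Spp1 -1.18 at resolution 2), and stayed 0 without any 1 library. For irradiated tumors the count of 4 became 2 with every barcode kept, where Cd9 was -0.56 and Lgals3 -0.037, and was 3 to 5 without 1 library. For untreated tumors 6 was 5 to 7, and Gpnmb, not called in the main fit, was called at 2.63 with the 8 genes and those of the lists allowed in the clustering. The difference of the responses was called for 2 genes by DESeq2 and for 0 without any 1 library. In monocyte-like barcodes the count of 1 became 3 without the low-count filter, 2 with every barcode kept, with doublets removed and with thinning, 0 with each tumor alone, and 1 to 2 without 1 library. Over all CD45+ barcodes the Panc02-SIY count of 4 became 2 at an adjusted p below 0.05 and was 2 to 6 without 1 library (2 without Panc02-SIY untreated replicate 4), while the others were 0 in MC38, 7 to 8 for untreated and 6 to 8 for irradiated tumors. Spp1 in Panc02-SIY, at -0.12 and not called in these sums, was called at 1.76 with non-immune clusters left out. The difference of the responses over all CD45+ barcodes went from 0 to 2 with DESeq2 and with every barcode kept, to 1 with non-immune clusters left out, and was 0 to 1 without 1 library.

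With the replicate number as a block, Spp1 in Panc02-SIY macrophage-like barcodes was not called, and 2 genes were called in the difference of the responses over all CD45+ barcodes. The value of Spp1 was then 3.80 (adjusted p = 0.161). No label ties same-numbered libraries to a shared animal or day, and not every same-number correlation was above 0.1, so the numbers were not taken as pairs. The correlations of deviations in macrophage-like barcodes were 0.00117 to 0.0275 in MC38 and 0.0554 to 0.393 in Panc02-SIY, and over all CD45+ barcodes 0.404, -0.159, 0.318 and 0.751 in Panc02-SIY. The best match had the same number for 3 of 4 Panc02-SIY libraries in both populations. Whether same-numbered Panc02-SIY libraries share a source of spread was not tested, and the main fits take no account of it.

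Counts over all genes in macrophage-like barcodes went with thinning from 1444 to 297 in MC38, 869 to 385 in Panc02-SIY, 4994 to 2329 in untreated and 5213 to 2485 in irradiated tumors. Panc02-SIY gave 299 at resolution 2, 268 with each tumor alone and 570.0 at an adjusted p below 0.05. With every barcode kept MC38 gave 951 and irradiated tumors 3417. The 5 genes of the difference of the responses became 42 with DESeq2, 21 with the block, 12 without the filter or without cluster 5, 15 without doublets and 1 with thinning. The 43 over all CD45+ barcodes became 261 with DESeq2, 141 with the block, 334 with every barcode kept, 142 without non-immune clusters, 72 without doublets, 4 at an adjusted p below 0.05 and 25 with thinning. The 1455 of MC38 over all CD45+ barcodes became 503 with every barcode kept and 963 with thinning. The 27 of monocyte-like barcodes became 235 without the filter, 52 with DESeq2, 164 with every barcode kept, 62 without doublets, 11 at an adjusted p below 0.05, 42 at resolution 2 and 0 with each tumor alone. Causes were not tested. With every barcode kept, macrophage fits were run for MC38 and for irradiated tumors only, as too few untreated Panc02-SIY libraries had at least 10 macrophage-like barcodes. Monocyte-like comparisons with MC38 were run only with each tumor clustered alone.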
